A study of Homo sapiens with 4 samples.

Results

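FGA, FGB and FGG, the genes of the fibrinogen chains, and their relative FGL1 were examined, 4 of 58735 counted genes. They were found by gene name and Ensembl identifier, having been chosen on earlier results of these data because the reads of the 3 chains were nearly absent with PBS and present with all migrasomes (Migs). Each level against PBS is therefore a description. All 4 passed the filter of 10 reads, through the Mig libraries alone. Fibrinogen is assembled in hepatocytes from paired Aα, Bβ and γ chains and is secreted into plasma. Thrombin releases fibrinopeptides from the Aα and Bβ chains, the resulting fibrin polymerises, and factor XIII cross-links it. FGL1 is a hepatocyte-secreted relative with the same globular domain, and it is known as a ligand of the immune receptor LAG3. All 3 chains are acute-phase genes, which IL-6 and STAT3 signaling induces in liver together with C/EBP factors.

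RNA came from MHCC-97H, an established metastatic HCC line labelled wild type, and each condition had 1 library, 4 in all. For 24 h the cells received PBS or 2 μg of Migs, which MHCC-97H donor cells had shed. Donors were kept in normoxia for normo-Migs and in hypoxia for hypo-Migs, and hypoxic donors without CD147 gave CD147KO-Migs. Values of the Mig libraries are listed in this order. The knockout was thus in the donors, so no library had a knocked-out gene against which its label could be checked. With 1 library per condition no difference was set against the spread between cultures, and every interval below covers counting error only.

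The library labelled PBS stood apart, with 3 reads or fewer for 251 genes that had at least 100 reads in each Mig library. With 1 PBS library, an effect of Migs and a difference of that culture, its cells or its library from the others cannot be told apart in any fold against PBS below. Library size ranged from 33882496 to 40285223 reads on genes. Of 17 listed secreted proteins of hepatocytes, 11 had 0 reads with PBS and 11, 10 and 9 with the Migs. ALB, the main plasma protein, TTR, APOB and AFP were among those at 0 in every library. Others were read, with 33, 630, 818 and 895 reads for RBP4 and 561, 188, 179 and 234 for VTN, PBS first. The 8 hepatocyte markers summed to 0.384 reads per 1000000 reads on genes (CPM) with PBS and to 0.856 to 1.24 CPM with Migs.

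The fibrinogen genes lie together on chromosome 4 of GRCh38, within 50012 bases. FGB (ENSG00000171564) occupies 154562956 to 154571086 on the plus strand. FGA (ENSG00000171560) lies at 154583126 to 154590766 and FGG (ENSG00000171557) at 154604134 to 154612967, both on the minus strand. FGL1 (ENSG00000104760) lies on another chromosome. The longest principal transcript of GENCODE 29 has 6 exons for FGA, 8 for FGB, 10 for FGG and 10 for FGL1.

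Since the chains were all read more with Migs than with PBS, the sequences before their start sites are shown, from RefSeq on GRCh38.p14 and written 5′ to 3′ on the strand of each gene. The FGA stretch is chr4:154590767-154590992 on the minus strand, and the FGB stretch is chr4:154562730-154562955 on the plus strand. GENCODE exons cover much of the corresponding FGG window, so 30 bases around its upstream IL-6 letters are given, chr4:154612800-154612829 on the minus strand. Capitals mark the letters searched on either strand: CTGGGA (the core of the type II IL-6 response element) and its variant with the letters CTGGAA, then TTGCNNAA (a C/EBP site) and TATAAA, the letters of the TATA box.
FGA: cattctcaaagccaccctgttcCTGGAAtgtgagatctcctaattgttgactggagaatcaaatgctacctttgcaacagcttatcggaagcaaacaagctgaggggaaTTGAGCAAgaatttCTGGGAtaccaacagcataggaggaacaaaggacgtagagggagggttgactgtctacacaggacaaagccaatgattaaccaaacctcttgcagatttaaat
FGB: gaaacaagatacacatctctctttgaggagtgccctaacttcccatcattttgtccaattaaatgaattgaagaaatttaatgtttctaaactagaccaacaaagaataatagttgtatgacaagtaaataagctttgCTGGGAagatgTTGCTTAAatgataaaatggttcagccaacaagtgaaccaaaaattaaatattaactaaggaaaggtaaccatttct
FGG: tgtgtgcaaaatCTGGGAacctgacagtat

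In the 250 bases before the RefSeq start site, the C/EBP letters were found 141 to 134 bases upstream of FGA and 101 to 94 bases upstream of FGB, and were not in the FGG window. CTGGGA was present once in FGA, once in FGB and on both strands in FGG, at 161 to 156 and 42 to 37 bases upstream. CTGGAA was found in FGA alone among the 3 windows, and TATAAA in none. Among all 35116 RefSeq windows of this length, 9.05% held the C/EBP letters, 28.7% CTGGGA, 19.4% CTGGAA and 10.7% TATAAA. These matches describe letters and were not tested for binding.

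FGA, whose product is the Aα chain, had 0 reads with PBS and 395, 493 and 462 in the Mig libraries. The PBS library was thus empty for FGA, where 0 reads allow up to 0.0885 CPM, and the Mig libraries were close to each other at 11.4, 12.2 and 13.2 CPM. FGB, which encodes the Bβ chain, had 0 reads with PBS and 561, 827 and 832 with the Migs. Its CPM was 16.2 (95% Wilson interval 14.9 to 17.6), 20.5 (19.2 to 22.0) and 23.7 (22.2 to 25.4), and the first interval overlaps neither of the others. FGB was the most read of the 4 genes in each Mig library. FGG, the γ chain gene, was the only member with reads in the PBS library, 6, or 0.177 CPM (0.0812 to 0.386). With Migs it had 205, 322 and 381 reads, or 5.93, 7.99 and 10.9 CPM.

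FGL1, a minus-strand gene of chromosome 8 (17864380 to 17910365), was far lower, with 0 reads for PBS and 40, 36 and 54 for the Migs. These are 1.16 CPM (95% Wilson interval 0.850 to 1.58), 0.894 (0.646 to 1.24) and 1.54 (1.18 to 2.01), and the intervals of the 3 Mig libraries overlap. By FPKM, which divides reads by gene length and library size, FGB ranked 6281, 5492 and 4994 among 19951 protein-coding genes in the Mig libraries. FGA ranked 8615, 8501 and 8297, FGG 9903, 9332 and 8584, and FGL1 12073, 12394 and 11789. With this gene length, the order of the 4 genes was the same in each Mig library.

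The contrast with PBS chose the members, and its folds are given without any test. Against a floor of 3 reads in the PBS library and after TMM scaling, FGA was at least 133-, 141- and 152-fold higher with the Migs. FGB was at least 189-, 237- and 273-fold higher. FGG, with 6 reads in PBS, was 34.6-fold higher (exact 95% interval 15.6 to 95.4), 46.1-fold (21.0 to 127) and 62.6-fold (28.5 to 172). FGL1 was at least 13.5-, 10.3- and 17.7-fold higher. All 4 of 4 members passed the 2-fold criterion upward in each comparison. Over all 19895 genes tested, 18.1% passed it upward and 12% downward with normo-Migs, 18.9% and 11.6% with hypo-Migs, and 18.3% and 12% with CD147KO-Migs. In these bulk libraries, fewer cells that express a gene and less of its RNA per cell cannot be told apart.

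Whether the level of the members differed with the origin of the Migs is asked by the comparisons among Mig libraries. The choice of genes asked for reads of the chains in every Mig library, but did not use the differences between these libraries. In all 3 pairs, 0 of 4 members passed the 2-fold criterion. Between hypo-Migs and normo-Migs, FGB was 1.25-fold (exact 95% interval 1.12 to 1.40) and FGG 1.33-fold (1.12 to 1.60) higher with hypo-Migs. FGA was at 1.06-fold (0.926 to 1.21) and FGL1 at 0.764-fold (0.473 to 1.23), which was not distinguishable from no difference at this depth. Of all genes tested, 5.19% were higher and 4.15% lower by 2-fold or more in this pair. The interval lay above 1 for 2 of 4 members, against 16.6% of all genes, and below 1 for 0 of 4, against 18.2%. The chains are neighbouring genes read from the same libraries, so the members are not independent draws from all genes. Such counts, here and in the other pairs, are descriptions and no test of the members as a set.

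Between hypo-Migs and CD147KO-Migs, which differ in the CD147 of the donor cells, every member was at a lower level with hypo-Migs. The fold was 0.867 (exact 95% interval 0.787 to 0.956) for FGB, 0.737 (0.634 to 0.858) for FGG and 0.582 (0.371 to 0.903) for FGL1. For FGA it was 0.931 (0.818 to 1.06), which includes 1. Thus 3 of 4 intervals lay below 1 and 0 above it, where 17.6% and 17.3% of all genes did so, and 4.78% and 4.34% of all genes were higher and lower by 2-fold or more.

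The widest separation of the chains was between CD147KO-Migs and normo-Migs. FGG was 1.81-fold (exact 95% interval 1.52 to 2.15) and FGB 1.44-fold (1.29 to 1.61) higher with CD147KO-Migs. FGA had a fold of 1.14 (0.993 to 1.30) and FGL1 of 1.31 (0.857 to 2.03), both including 1. Here 2 of 4 intervals lay above 1 (16.6% of all genes) and 0 below it (17.9%). By 2-fold or more, 4.96% of all genes were higher and 4.73% lower. Among 2917 genes with a mean of 0.5 to 2 times the reads of FGG over the Mig libraries, 8 had a larger fold in this direction than FGG. For FGB this was 28 of 4312 genes, for FGA 692 of 3452 and for FGL1 746 of 2826. Between hypo-Migs and normo-Migs the same numbers were 140 for FGG, 114 for FGB, 1207 for FGA and 2170 for FGL1. Between hypo-Migs and CD147KO-Migs, where the members were lower, 2794, 3866, 2396 and 2564 of these genes had a higher fold. Summed over the chains, the reads were 1161, 1642 and 1675. The sum was 1.40-fold (1.30 to 1.51) higher with CD147KO-Migs than with normo-Migs. Among the 3289 genes with a mean of 300 to 1000 reads in the Mig libraries, the depth of the chains, 18.1% had an interval above 1 between hypo-Migs and normo-Migs, 18.7% below 1 between hypo-Migs and CD147KO-Migs, and 19.6% above 1 between CD147KO-Migs and normo-Migs. The 3 pairs are formed from the same 3 libraries, so a deviation of 1 library enters 2 of them.

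**Figure D1:**
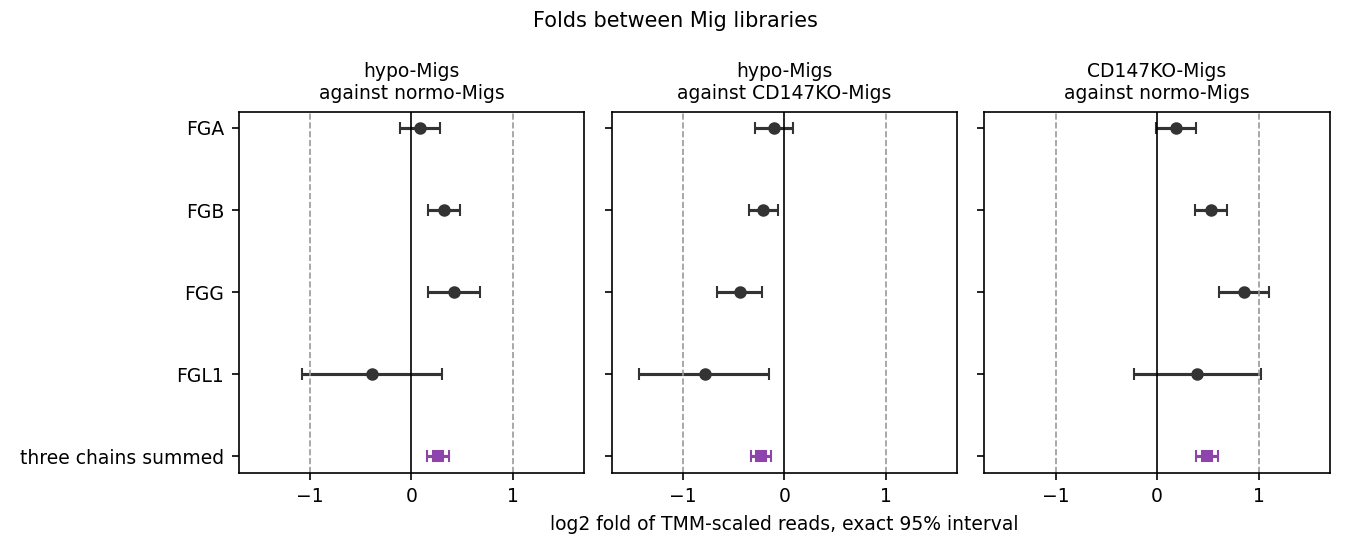
Folds of TMM-scaled reads between Mig libraries on a log2 axis, with exact 95% intervals. Circles are single genes, squares the chains summed, and dashed lines the 2-fold criterion. The largest fold of a chain was 1.81 for FGG between CD147KO-Migs and normo-Migs.

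Ratios between the chains differed between some Mig libraries by more than counting error, the only error these intervals cover. The ratio of FGG to FGA reads, in which the size of the library cancels, was 1.59 times as high with CD147KO-Migs as with normo-Migs (exact conditional 95% interval 1.27 to 1.99). For FGB to FGA this was 1.27 (1.06 to 1.51), and for FGG to FGB 1.25 (1.02 to 1.54). Between hypo-Migs and normo-Migs the ratio of FGG to FGA was 1.26 times as high (1.00 to 1.58), whereas those of FGB to FGA (0.992 to 1.41) and FGG to FGB (0.864 to 1.32) had intervals including 1. Between hypo-Migs and CD147KO-Migs the ratio of FGG to FGA was 0.792 times as high (0.648 to 0.967). For FGB to FGA (0.932, 0.792 to 1.10) and FGG to FGB (0.850, 0.710 to 1.02) the intervals of this pair included 1. How often other pairs of genes give such intervals was not determined. The ratio of FGL1 to the summed chains had intervals including 1 in all 3 pairs, such as 0.636 (0.392 to 1.03) between hypo-Migs and normo-Migs.

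The protein holds equal numbers of each chain, so the levels per length were set side by side. In FPKM, FGB was at 6.03, 7.54 and 8.69 with normo-Migs, hypo-Migs and CD147KO-Migs, FGA at 2.91, 3.08 and 3.30, and FGG at 1.66, 2.21 and 2.99. Per length, FGB took 56.9%, 58.8% and 58.0% of the chain reads. The authors' gene length joins the exons of all transcripts and is 3956 bases for FGA, 2708 for FGB and 3600 for FGG. The longest principal transcripts have 3678, 1975 and 1760 bases, so the length used for FGG was 2.05 times that of its transcript. With gene length, FGG per FGA was 0.570 (exact 95% interval 0.479 to 0.677) with normo-Migs, 0.718 (0.622 to 0.828) with hypo-Migs and 0.906 (0.789 to 1.04) with CD147KO-Migs. With the principal transcripts the same ratios were 1.08, 1.36 and 1.72, so the order of FGA and FGG depended on the length chosen. FGB was the highest chain with either length, also with the shortest transcripts of the consensus coding set (CCDS), where it took 48.7% to 50.3%.

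The genes beside the cluster did not share the pattern. PLRG1, a splicing factor gene 12521 bases from the 5′ end of FGB, had 2602 reads with PBS and 2536, 3008 and 2550 with the Migs. Its log2 fold over PBS lay between -0.05 and -0.01. The other 12 genes that reached within 200 kb, among them LRAT, DCHS2 and RBM46, had at most 8 reads in any library. Around FGL1, 6 of 12 other genes passed the read filter. PCM1, a centrosomal protein gene 12475 bases away, had 3079 reads with PBS and 3756, 4755 and 3966 with the Migs. The lysosomal ceramidase gene ASAH1 had 1988, 3325, 3697 and 3437 reads, with a log2 fold over PBS of 0.68 to 0.77, and MTUS1 3812, 3974, 4954 and 4330. The other tested neighbours were noncoding genes with few reads. AC027117.2, 3311 bases away, had 3, 11, 6 and 0 reads, with a log2 fold over PBS of 1.41 with normo-Migs and -1.36 with CD147KO-Migs. AC027117.1 had 42, 37, 21 and 42 reads (-1.14 with hypo-Migs), and AC124242.1 6, 13, 8 and 5. AC087273.1 and AC087273.2, which overlap FGL1 on the other strand, had at most 2 reads, and the handling of strand was not given in the sources used here.

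Listed regulators of fibrinogen transcription in liver were transcription factors, IL6, receptors, kinases and SOCS3, a feedback inhibitor. Of 19 such genes, 18 passed the read filter. Relative to PBS, 5, 6 and 6 were higher by 2-fold or more in the Mig libraries, SOCS3 among them each time, and 0 lower in any. The higher shares were 27.8%, 33.3% and 33.3% of those tested, beside 18.1%, 18.9% and 18.3% of all genes. The median log2 fold was 0.54, 0.64 and 0.72, beside 0.03, 0.04 and 0.03 over all genes tested. The genes with the highest FPKM were the transcription factors CEBPB and STAT3, the oncostatin M receptor OSMR and the kinase JAK1. STAT3 had 10229 reads with PBS and 9565, 11534 and 10627 with the Migs, and CEBPB 4050, 6116, 7233 and 6991. Some further genes of this list were singled out after their values were seen. IL6, the inducing cytokine, had 0 reads with PBS and 110, 181 and 180 with the Migs, and its feedback inhibitor SOCS3 had 246, 1935, 2373 and 2314. The liver transcription factors FOXA2 and HNF4A had 0, 60, 43 and 41 reads and 134, 146, 246 and 141 reads. IL6 and FOXA2 passed the filter through the Mig libraries alone. Other genes of the list were lower than with PBS, though within 2-fold. IL6R had 745 reads with PBS and 396, 524 and 530 with the Migs, CEBPA 127, 76, 114 and 86, and OSMR 12458, 8634, 10451 and 9186. In the pairs of Mig libraries, 0 of 18 regulators passed the 2-fold criterion. Of all genes, 4.15% to 5.19% did so in each direction, shares so low that 0 of 18 does not set the list apart. The median log2 fold of the regulators was 0.05 between hypo-Migs and normo-Migs and -0.10 between hypo-Migs and CD147KO-Migs. Between CD147KO-Migs and normo-Migs it was 0.12.

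Among 22 acute-phase proteins, the class to which the chains belong, 11 passed the read filter. Relative to PBS, 4 were higher and 2 lower with normo-Migs, 5 and 2 with hypo-Migs, and 4 and 2 with CD147KO-Migs. The higher shares were 36.4%, 45.5% and 36.4% of those tested, beside 18.1%, 18.9% and 18.3% of all genes. Among the higher genes, SAA2 had 0 reads with PBS and 9, 4 and 12 with the Migs, and LBP 3, 2, 21 and 2. Both passed the filter through a Mig library alone, so these shares include genes that could hardly be counted otherwise. The median log2 fold was 0.07, 0.99 and 0.41, and the value for hypo-Migs was 0.21 once counts under the floor of 3 reads were raised to it. The most abundant were C3, FN1, SAA1 and CP. FN1, encoding fibronectin, had 548 reads with PBS and 15712, 18900 and 13976 with the Migs. SAA1 had 20, 241, 171 and 307 reads and CP, the copper carrier ceruloplasmin, 63, 631, 996 and 948. C3 stayed within 2-fold, at 20296, 21044, 27210 and 27396 reads. CRP, ORM1, ORM2, SERPINA3 and HAMP had 0 reads in every library. SAA1 and SAA2 are near-identical copies, between which reads could be split.

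Some clotting factors and inhibitors were higher than with PBS, most of them at few reads. Of 19 clotting factors and inhibitors, 10 passed the filter, with 3 higher and 1 lower with normo-Migs than with PBS, 4 and 1 with hypo-Migs, and 4 and 0 with CD147KO-Migs. The higher shares were 30%, 40% and 40% of those tested, beside 18.1%, 18.9% and 18.3% of all genes. The median log2 fold was 0.18, 0.34 (0.33 with the floor) and 0.36. The best expressed were TFPI, PROS1, GGCX and F12. F12, encoding factor XII, had 232 reads with PBS and 816, 742 and 866 with the Migs, whereas TFPI, the inhibitor of the tissue factor pathway, had 3406, 3172, 3859 and 3308. The other higher genes were F5 and the inhibitors SERPINA5 and SERPIND1, with at most 22 reads in any library. With PBS, F5 and SERPINA5 had 0 reads and SERPIND1 2, so all passed the filter through the Mig libraries alone. F7, F9 and KLKB1 had 0 reads throughout. The 17 hepatocyte secreted proteins gave 7 testable genes, with 3, 3 and 5 higher than PBS in the Mig libraries and 3, 2 and 1 lower. The higher shares were 42.9%, 42.9% and 71.4% of those tested, and the lower shares 42.9%, 28.6% and 14.3%. Of all genes, 18.1%, 18.9% and 18.3% were higher and 12%, 11.6% and 12% lower. TF, AMBP, APOH and AGT passed the filter through the Mig libraries alone. TF counted as lower with normo-Migs and hypo-Migs on 2 reads with PBS against 0. The median log2 fold of the 7 genes was 0.95, 0.43 and 1.59 (1.72 with the floor). RBP4, the retinol carrier, had 33, 630, 818 and 895 reads, and VTN, encoding vitronectin, 561, 188, 179 and 234. AGT and APOH, the other best expressed, had at most 54 reads.

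Of the genes that act on fibrin or bind fibrinogen, some were higher and some lower than with PBS. Of 15 genes of fibrin cross-linking and fibrinolysis, 10 were tested, with 4 higher and 1 lower with normo-Migs, 3 and 1 with hypo-Migs, and 4 and 0 with CD147KO-Migs, and a median log2 fold of 0.33, 0.15 and 0.03. The higher shares were 40%, 30% and 40%, beside 18.1%, 18.9% and 18.3% of all genes, whose median was 0.03, 0.04 and 0.03. S100A10 and ANXA2, whose complex binds plasminogen, TGM2 and PLAUR had the highest FPKM. PLAT and PLAU, the plasminogen activators, had 12 and 2 reads with PBS, against 447 and 379 with normo-Migs (both chosen after their values were seen). PLG, their substrate, had at most 1 read in any library. Of 12 receptors, 11 were tested, with 3 higher than PBS in each Mig library and 2, 0 and 1 lower, and a median of 0.47, 0.41 and 0.28. The higher share was 27.3% in each Mig library, beside the same shares of all genes. ITGB1, ITGA5, ITGAV and ICAM1 were the most abundant, all of them within 2-fold of PBS. The 3 higher genes were ITGA2B, ITGB3 and TLR4. ITGA2B and ITGB3, whose products form the platelet fibrinogen receptor, had 0 reads each with PBS, 156 and 35 with normo-Migs, 114 and 60 with hypo-Migs, and 151 and 72 with CD147KO-Migs. Both thus passed the filter through the Mig libraries alone. LAG3, the receptor of FGL1, had 17, 24, 11 and 12 reads.

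**Figure D2:**
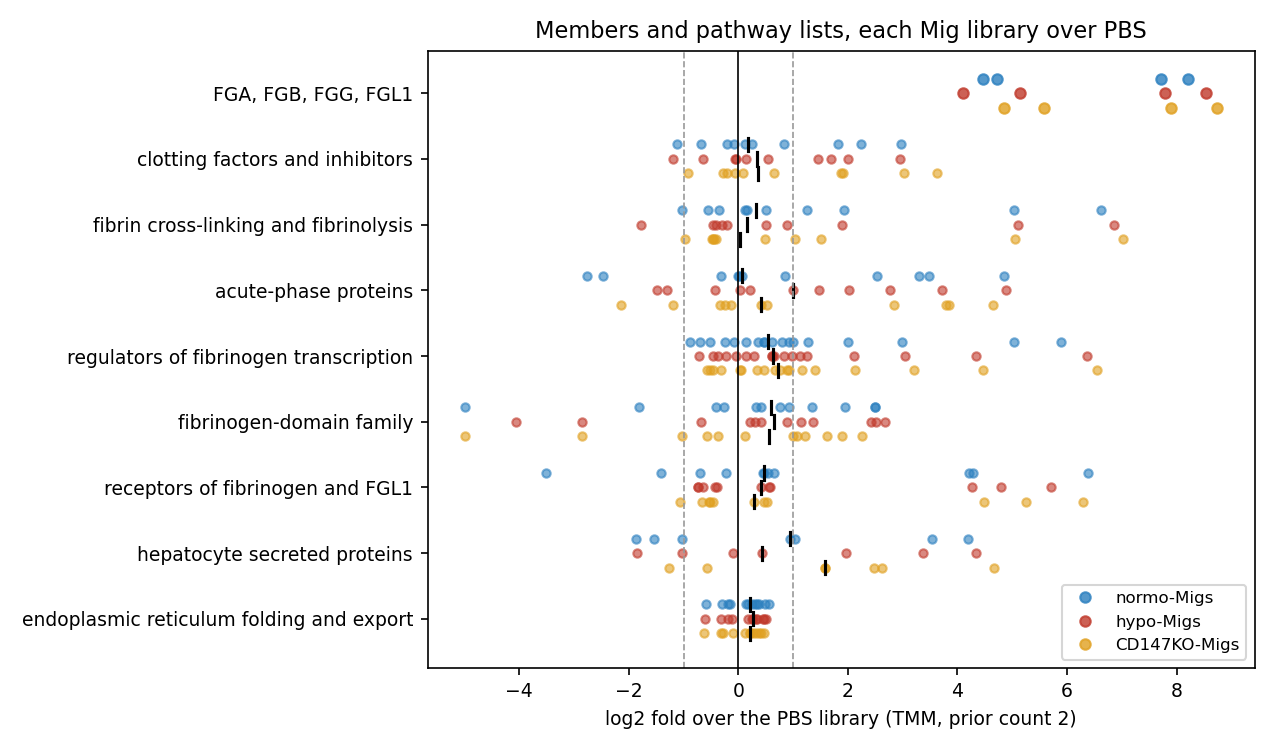
Log2 fold of each Mig library over the PBS library for the members and for the tested genes of the 8 lists, 1 point per gene; black ticks are list medians and dashed lines the 2-fold criterion. The members lie between 4.10 and 8.74, values that depend on the prior count of 2 where PBS had 0 reads, and the genes of endoplasmic reticulum folding and export all lie within 2-fold.

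Markers of other cell types were read beside the members. The 6 fibroblast markers summed to 23.7 CPM with PBS and 157 to 167 CPM with Migs. With Migs, COL1A1 and PDGFRB carried most of this sum. Of the 5 tested, 4 were higher by 2-fold or more in each Mig library. COL3A1 was not, with 27 reads with PBS and 14, 27 and 20 with the Migs, and COL1A2 was at 0 in the Mig libraries. Since this sum moved with the members, its part in their levels against PBS was not tested. Over the Mig libraries this sum differed little, at 157, 167 and 167 CPM, with COL1A1, its largest part, at 103, 99.7 and 99.1. PDGFRB was at 50.5, 60.7 and 61.8 CPM, DCN at 2.23, 3.87 and 3.94, and LUM at 1.42, 1.61 and 2.05. The median log2 fold of the 5 tested markers was 0.25 between hypo-Migs and normo-Migs. It was 0.43 between CD147KO-Migs and normo-Migs and -0.02 between hypo-Migs and CD147KO-Migs. The part of these markers in the members' folds among Mig libraries was not tested. The 6 endothelial markers summed to 29.9 CPM with PBS and 36.9 to 41.3 with Migs, with at most 2 reads for KDR and 7 for VWF. EGFL7 carried most of this sum, while PECAM1 had 16 reads with PBS and 118, 146 and 131 with the Migs. The 5 megakaryocyte and platelet markers had 2.15 CPM with PBS and 2.63 to 2.92 with Migs, with PF4, PPBP and GP9 at 0 in every library. The 5 leukocyte markers had 0.649 CPM with PBS and 1.42 to 2.74 with Migs, with CD3E at 0 throughout. CD14, the only one of them to pass the read filter, had 14 reads with PBS and 47, 78 and 86 with the Migs. PECAM1 and CD14 thus also moved with the members, and their part in the levels against PBS was not tested.

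The genes with the pattern nearest to the mean of the chains were BRINP3, EYA1, AARD, SOX7 and AGR2, by Euclidean distance between centred log2 CPM over the 4 libraries among 12184 protein-coding genes. Their distances were 0.17 to 0.22 on the log2 scale. All 5 had 0 reads with PBS. BRINP3 had 218, 312 and 283 reads with the Migs, and AGR2 266, 312 and 342. Nearest to FGL1 were AKR1B15, SHF, DTX3, CDH23 and TM4SF20, at 0.16 to 0.30, and AKR1B15, whose reads a near-identical copy could share, had 1 read with PBS and 70, 62 and 83 with the Migs. FGL1 had too few reads to be a candidate for the chains. These distances rest largely on the PBS values by which the members were chosen.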

How the data were processed

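RNA-seq of 4 libraries was used, 1 per condition. The authors deposited raw counts per gene, and FPKM values scaled by gene length and library size. Submitters' processing notes name CASAVA 1.8, fastp, HISAT2 2.0.5 and featureCounts 1.5.0-p3 with hg38; parameters and strand handling are not given in the sources used here. Genes were matched by Ensembl identifier, and coordinates are those of the tables. Counts were scaled by TMM (factors 0.986 to 1.02) in edgeR 4.0.16 (R 4.3.3). Log2 folds across genes used a prior count of 2, over genes that reached 10 reads in any library. The study's criterion, a log2 fold of 1, was kept without its p-value, since 1 library per condition leaves no spread. Member folds are ratios of scaled counts with exact (Clopper-Pearson) 95% intervals from scipy 1.17.1. Read intervals and floors cover counting error only, since PCR duplicates are not independent molecules. The 5 nearest genes required a mean of at least 50 reads. Named list genes were the 4 with the highest mean FPKM. Members and lists were chosen with earlier results of these data known. In the list of transcription regulators, 2 genes are not reported here and were left out of its counts. The fold script was tested on simulated data. Scaling, read filter, prior count, the FPKM table and an exact binomial test were varied, and 2 transcript lengths were added after seeing the data.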

Additional observations from a re-analysis of the deposited data

How the results depend on the processing

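All member folds kept their direction under library totals or DESeq2 1.42.0 size factors, shifting by at most 3.22% and 0.743%. Those with a counting interval stayed within it, and the folds of FGA, FGB and FGL1 over PBS are bounds without one. The FPKM table gave the same shift as the size factors, and no fold for members at 0 with PBS. No paired analysis was possible because each condition had 1 library. In the order normo-Migs, hypo-Migs and CD147KO-Migs against PBS, then hypo-Migs against normo-Migs, hypo-Migs against CD147KO-Migs and CD147KO-Migs against normo-Migs, the genes past 2-fold numbered 6003, 6067, 6033, 1858, 1814 and 1928. They were 1619, 1674, 1658, 56, 80 and 66 on log2(FPKM + 1), which compresses low genes. Requiring 10 reads in every library, which leaves out FGA, FGB, FGG and FGL1, gave 2680, 2755, 2744, 255, 231 and 265. Without a filter the numbers were 10692, 9642, 10675, 5112, 4966 and 5930. With an adjusted p of edgeR's exact binomial test in addition, the last 3 pairs gave 975, 1003 and 977, and this test compares libraries, not conditions.

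Ratios of chain levels depended on the length, by construction. With the longest principal transcripts, FGB over FGA was 2.64, 3.12 and 3.35 with normo-Migs, hypo-Migs and CD147KO-Migs, and FGB over FGG was 2.44, 2.29 and 1.95. FGG over FGA was then 1.08 and 1.36 with normo-Migs and hypo-Migs, the reverse of the order with gene length, and 1.72 with CD147KO-Migs. With the shortest CCDS transcripts, FGB over FGA was 1.62, 1.91 and 2.05, FGB over FGG 2.30, 2.16 and 1.83, and FGG over FGA 0.703, 0.885 and 1.12. Depth limits FGL1 most, whose 36 to 54 reads leave folds such as 1.31 with an interval of 0.857 to 2.03.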

Other observations

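Other proteins with a fibrinogen-like domain were also read. Of 20 such genes, 12 passed the read filter, and 4, 5 and 5 were higher and 2, 2 and 3 lower by 2-fold or more than PBS, in the order normo-Migs, hypo-Migs, CD147KO-Migs. The higher shares were 33.3%, 41.7% and 41.7% of those tested, beside 18.1%, 18.9% and 18.3% of all genes. Among the genes higher in a Mig library, ANGPT2, ANGPTL2, ANGPTL6 and ANGPTL7 passed the filter through the Mig libraries alone, with 2, 9, 6 and 4 reads with PBS. ANGPT4 and ANGPTL5, lower in each Mig library, passed it through the PBS library alone, with 12 and 59 reads. The median log2 fold of the 12 genes was 0.59, 0.65 and 0.56 (0.55 with genes at the floor of 3 reads). ANGPTL4, FIBCD1, TNC and ANGPT1 had the highest FPKM. TNC, encoding the matrix protein tenascin-C, had 88 reads with PBS and 498, 556 and 434 with the Migs. ANGPTL4, an inhibitor of lipoprotein lipase, had 1507, 1982, 2168 and 1658 reads. The chaperones and export receptors that secreted proteins such as fibrinogen use stayed within 2-fold, and 0 of 12 passed the 2-fold criterion in any of the 6 pairs. Of all genes, 18.1% to 18.9% passed it upward and 11.6% to 12% downward against PBS. Between Mig libraries 4.15% to 5.19% did so in each direction. HSPA5, CALR, CANX and HSP90B1 led this list, and HSPA5 had 27758 reads with PBS and 40137, 46068 and 38905 with the Migs.

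Between hypo-Migs and normo-Migs, 1 clotting gene was higher by 2-fold or more and 0 lower of 10 tested. For fibrinolysis this was 0 and 0 of 10, for acute-phase proteins 3 and 1 of 11, for receptors 1 and 1 of 11, for hepatocyte secreted proteins 2 and 1 of 7, and for the fibrinogen-domain family 1 and 1 of 12, beside 5.19% and 4.15% of all genes. Between hypo-Migs and CD147KO-Migs the numbers were, in the same order of lists, 0 and 1, 0 and 1, 2 and 2, 0 and 0, 0 and 2, and 2 and 1, beside 4.78% and 4.34%. Between CD147KO-Migs and normo-Migs they were 2 and 0, 0 and 1, 1 and 1, 1 and 0, 3 and 0, and 0 and 1, beside 4.96% and 4.73%. SERPIND1, the clotting gene, had 16 reads with hypo-Migs and 5 with normo-Migs.

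The constants by which the FPKM values had been divided equalled DESeq2's median-of-ratios size factors times the geometric mean of the library totals, at 34.6 (PBS), 34.4, 40.5 and 35.4 in units of 1000000 reads.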
